A study of Rattus norvegicus with 32 samples.

Results

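Normal mammary glands of 2 inbred rat strains, Cop and BUF/N, were compared. They were chosen by their titles, 5 arrays labelled Cop and 5 labelled BUF/N, and make up 10 of the 32 arrays of the series. The study's title concerns how rat strains differ by inheritance in mammary tumour risk. Cop, known in this field as the Copenhagen rat, is known for its resistance to mammary tumours, and BUF/N rats are known to develop them readily after a chemical carcinogen. In each sample total RNA of whole gland was hybridised to 1 Affymetrix rat array. The other single-sample arrays entered the same fit, 5 each for the strains F344, ACI and WF and for an F1 hybrid bred from Cop and F344. They serve below as a further yardstick, and 1 array each of pooled Cop RNA and pooled F344 RNA was left out. None of the groups is described as treated, and no transgene or deletion is named. Age, sex, oestrous stage, collection time and batch are not in the labels. They do not say whether each array is a separate animal either, so p-values measure only the spread between these samples.

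The mammary gland is a tree of epithelial ducts set in a fat pad. Luminal epithelial cells line the ducts and make milk proteins, and myoepithelial cells wrap around them and contract. Prolactin drives milk protein genes through its receptor, the kinase JAK2 and the transcription factor STAT5, and the ErbB receptors and insulin-like growth factor 1 (IGF1) take part in the growth of the ducts. The fat pad holds adipocytes, blood vessels, macrophages and mast cells. In whole-gland RNA, fewer cells of a type and less RNA per cell cannot be told apart. The label of the tissue was borne out by its markers, since luminal keratins, Csn1s1 of the milk genes and adipocyte genes gave signals far over the floor on every array of both strains. Krt18, a luminal keratin, measured 881, 673, 726, 507 and 1154 in Cop glands and 1441, 1075, 1459.7, 1287 and 1262 in BUF/N glands. Fabp4, the fatty acid carrier of adipocytes, measured 4333, 4031, 3276, 4312 and 4069.5 in Cop glands and 2548, 2494, 1320.0, 1782 and 2836 in BUF/N glands.

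All values below are the deposited linear signals, each array scaled by the authors to 1 common trimmed mean. Tests were run on log2 signals after low values had been set to a floor of 18.3, and every log2 change is Cop minus BUF/N with its standard error (SE). A probe set passed when its limma p-value, adjusted by Benjamini and Hochberg over the 5039 tested probe sets, was under 0.05. All tests rest on the spread within all 6 groups, and 5 arrays a strain limit the precision. Arrays correlated at 0.929 to 0.958 within Cop, at 0.933 to 0.967 within BUF/N and at 0.825 to 0.925 between the strains. The median signal per array was 71.9 to 78 in Cop and 80.5 to 84.2 in BUF/N. The share of probe sets at the floor was 24.3% to 27.1% in Cop and 22.5% to 23.7% in BUF/N. The GAPDH 3'/5' ratio, a sign of RNA length, was 0.910 to 1.14 in Cop and 0.974 to 1.32 in BUF/N. The ratio of 1.32 was that of BUF/N 3, which is flagged below for several values. The part of these differences in the results was not tested.

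Cop and BUF/N glands differed at 1172 of the 5039 tested probe sets, or 23.3%. Of these, 557 were higher in Cop (11.1% of those tested) and 615 were lower (12.2%), and they covered 823 named genes. Counts of list members below are to be read beside these shares. A list with similar shares does not stand out from all tested probe sets. More than 2-fold higher in Cop were 176 probe sets and more than 2-fold lower 212. Beyond 4-fold there were 13 on the higher and 30 on the lower side. At 1050 probe sets (20.8%) no Cop signal overlapped a BUF/N signal, with 502 higher in Cop (9.96%) and 548 lower (10.9%). The median log2 change over all tested probe sets was -0.07. It was 0.05 when each array was centred on its own median, a shift of over 0.1 on the log2 scale. That scaling gave 744 probe sets higher in Cop and 387 lower, against 638 higher and 539 lower after quantile normalization. Without Cop 1 the number lower in Cop was 404. Outside the pair, ACI 2, ACI 5, F1 2 and F1 3 had stood apart from their groups in earlier results. Without them 1697 probe sets passed, 770 higher and 927 lower. WF 1, with a GAPDH 3'/5' ratio of 1.35 and correlations of 0.886 to 0.915 within WF, was kept there and in every mean of F344, ACI and WF. The plot of all tested probe sets shows the lower side reaching further, with milk protein genes and a few single genes at its edge.

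**Figure D1:**
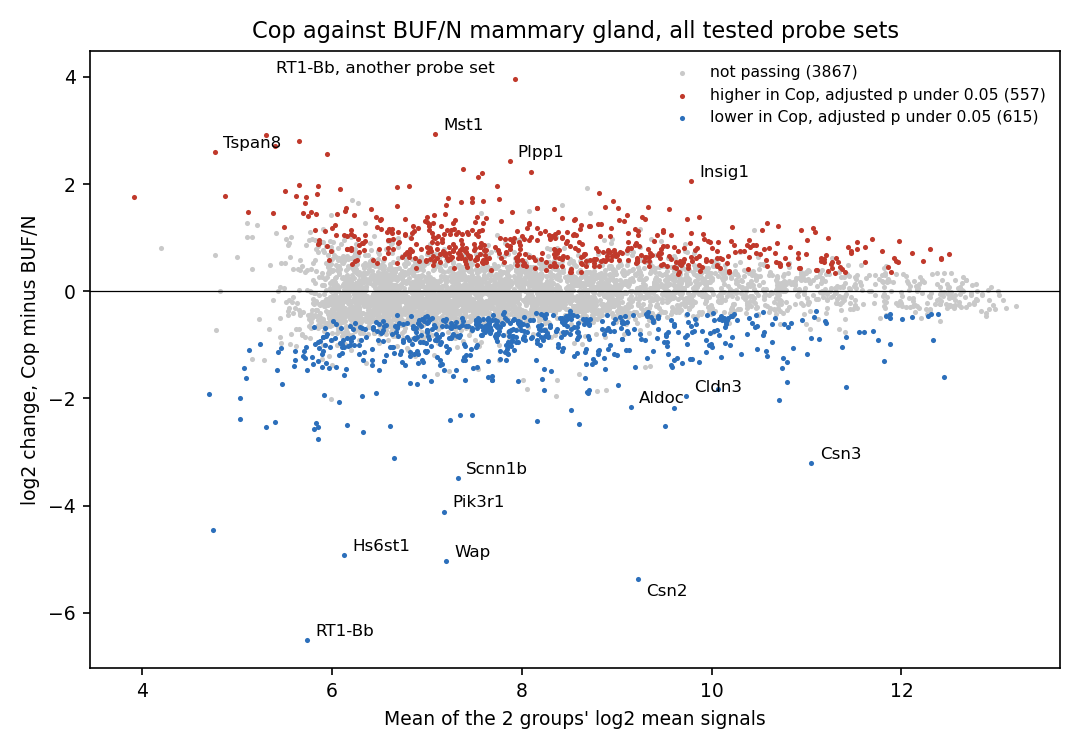
Each point is a tested probe set, with the mean of the log2 mean signals of the strains (before the floor) on the horizontal axis and the log2 change of Cop minus BUF/N, after the floor, on the vertical axis. The 557 passing probe sets higher in Cop are red, the 615 lower in Cop are blue, and the named genes run from RT1-Bb at -6.50 to another probe set of the same gene at 3.96.

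The genes of milk proteins that passed were all lower in Cop. Of 9 tested genes, 4 passed as lower in Cop and 0 as higher, beside the 12.2% and 11.1% of all tested probe sets, and the median log2 change of the list was -1.42. Csn2, which encodes beta-casein, measured 10.8, 26.4, 46.3, 22 and 550.5 in Cop glands, against 3458, 4194, 4409, 503 and 1025 in BUF/N glands. Cop 5 was far above the other 4 Cop arrays and overlapped the lowest BUF/N array, with a log2 change of -5.37 ± 0.97 (SE, adjusted p = 1.6e-04) between the strains. Csn3, the kappa-casein that holds the casein micelle together, measured 344.2, 425, 1019, 362 and 1689 in Cop glands and 4351, 7974, 7246, 4741 and 4989.9 in BUF/N glands, with no overlap and a log2 change of -3.20 ± 0.42 (SE, adjusted p = 3.0e-06). Wap, the whey acidic protein of rodent milk, measured 6.2, 12.4, 15.5, 7.6 and 54.6 in Cop glands and 788, 3379, 756, 253 and 448 in BUF/N glands. All but 1 of its Cop signals lay under the floor, every BUF/N array was above every Cop array, with a log2 change of -5.03 ± 0.71 (SE, adjusted p = 8.7e-06). Csn3 and Wap are among the largest changes, which were picked from genes without overlap. Muc1, a mucin of the apical cell surface that also coats milk fat, had a log2 change of -1.29 ± 0.23 (SE, adjusted p = 1.5e-04).

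The other milk genes did not pass. Csn1s1, one of the alpha-caseins, had high signals in both strains, 2676, 4096, 4075, 3298 and 5771 in Cop glands and 5281, 6493, 7644, 3954 and 4582 in BUF/N glands (log2 change -0.50 ± 0.19, adjusted p = 0.052), and passed when Cop 5, BUF/N 4 or BUF/N 5 was left out (adjusted p 0.013 to 0.042). Csn1s2a, another alpha-casein, ran from 9 to 69.5 in Cop glands and from 27.5 to 461 in BUF/N glands (log2 change -2.01 ± 0.89, adjusted p = 0.099). Lalba, the alpha-lactalbumin of lactose synthesis, ran from 1158 to 2908 in Cop and from 1436 to 6572 in BUF/N (log2 change -0.75 ± 0.35, adjusted p = 0.12), and passed without BUF/N 3 (adjusted p 0.036). Glycam1, a secreted mucin of milk, and Xdh, an enzyme of the milk fat membrane, gave -1.42 ± 0.69 (adjusted p = 0.13) and -0.17 ± 0.17 (adjusted p = 0.50). The genes that passed were thus those of beta- and kappa-casein, Wap and Muc1, and the alpha-casein Csn1s1 kept at least 2676 signal units on every Cop array. Set against the mean of F344, ACI and WF, where 6.81% of probe sets passed for Cop and 11.8% for BUF/N, Csn2 gave -3.08 for Cop (adjusted p = 0.013) and 2.29 for BUF/N (adjusted p = 0.055). Csn3 gave -2.29 for Cop (adjusted p = 5.3e-05) and 0.91 for BUF/N (adjusted p = 0.084) by the same measure. Wap gave -2.89 for Cop (adjusted p = 0.0016) and 2.15 for BUF/N (adjusted p = 0.016). The mean of F344, ACI and WF joins unlike strains for milk genes. The milk list score, the mean log2 signal of its members centred on all fitted arrays, averaged -1.38 in Cop and -0.86 in F344. It averaged 0.52 in ACI, 0.03 in WF, 0.82 in BUF/N and 0.87 in F1. Scores ran from -2.08 to -0.27 in Cop and from -1.29 to -0.38 in F344. A low milk score was thus not particular to Cop.

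The casein genes lie on chromosome 14 of the rat assembly GRCr8. Their promoters are shown because prolactin acts on casein genes through STAT5, whose textbook site is TTC and GAA held apart by any 3 bases (it reads the same on both strands). In RefSeq's promoter stretches of 300 bases, from 250 before to 50 after the start, 2382 of 27457 promoters (8.68%) hold this motif at least 1 time. Among the 9 tested milk genes 4 hold it, namely Csn2, Csn1s1, Csn1s2a and Glycam1, and Csn3, Wap, Lalba, Muc1 and Xdh do not in this window. Of the 19 tested genes of the hormone list below, Cish alone holds it, with 4 matches. Capitals mark the motif, and each stretch runs 5' to 3' on the strand of its gene. The stretches are at chr14:20601687-20601775 (plus strand) for Csn2, chr14:20574525-20574613 (minus) for Csn1s2a, chr14:20638901-20638989 (minus) for Csn1s1 and chr8:116850719-116850898 (plus) for Cish. The first match begins 97 bases before the start in Csn2, 102 in Csn1s2a, 100 in Csn1s1 and 241 in Cish.
Csn2: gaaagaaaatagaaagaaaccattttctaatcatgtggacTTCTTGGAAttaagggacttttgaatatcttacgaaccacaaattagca
Csn1s2a: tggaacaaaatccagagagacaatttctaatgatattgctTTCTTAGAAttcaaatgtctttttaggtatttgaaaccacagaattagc
Csn1s1: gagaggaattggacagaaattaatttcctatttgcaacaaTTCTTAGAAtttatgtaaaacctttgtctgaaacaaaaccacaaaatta
Cish: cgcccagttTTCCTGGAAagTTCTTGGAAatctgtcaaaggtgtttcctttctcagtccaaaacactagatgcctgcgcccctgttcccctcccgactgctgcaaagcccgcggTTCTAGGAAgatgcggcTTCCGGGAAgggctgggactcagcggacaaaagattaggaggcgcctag
Csn2 and Csn1s1 each hold 1 match at nearly the same distance, and their log2 changes were -5.37 and -0.50. A match is a description of letters, and no binding was measured.

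Most luminal epithelial genes were lower in Cop. Of 11 tested genes, 9 passed as lower in Cop, 1 passed as higher and 1 did not pass, with a median log2 change of -1.26. The list score is the mean log2 signal of its members, centred on the 30 arrays, and it ran from -0.84 to -0.03 in Cop and from 0.34 to 0.72 in BUF/N. Summed signals ran from 4033 to 6847 in Cop and from 10171 to 14844 in BUF/N. Cldn3, a claudin of tight junctions, measured 332, 422, 522, 254 and 672 in Cop glands and 1566, 1868, 1953, 1494 and 1268 in BUF/N glands, with no overlap (log2 change -1.95 ± 0.24, adjusted p = 1.3e-06). Ocln, the tight junction protein occludin, measured 58, 102, 154, 118 and 164 in Cop and 363, 298, 427, 329.5 and 358 in BUF/N (log2 change -1.65 ± 0.26, adjusted p = 3.4e-05). Every BUF/N array was above every Cop array for both junction genes, and Cldn7, a further claudin, also passed at -1.26 ± 0.22. Krt8, the keratin partner of Krt18 in simple epithelia, measured 395, 488, 638, 352 and 764 in Cop and 1307, 1199, 1496, 965 and 1067 in BUF/N (log2 change -1.24 ± 0.22, adjusted p = 1.2e-04). Krt18, Krt19 and the adhesion molecule Epcam passed with log2 changes of -0.77, -1.27 and -1.23, and Muc1, which stands on the milk list as well, with -1.29. The water channel Aqp5 gave -1.36 ± 0.50 (adjusted p = 0.048) and lost its call without Cop 1, 2, 4 or 5 or BUF/N 1, 2, 4 or 5 (adjusted p 0.060 to 0.14). Against the mean of F344, ACI and WF, 10 of the 11 luminal genes passed for Cop, 8 lower and 2 higher (median -0.81), and 4 passed for BUF/N (median 0.45). That mean joins unlike strains. The mean list score was -0.452 in Cop, -0.445 in ACI and -0.265 in F344, against 0.433 in WF, 0.469 in BUF/N and 0.260 in F1. A low luminal score was thus not particular to Cop. Lcn2, the iron-siderophore carrier lipocalin 2, did not pass (log2 change -0.70 ± 0.33, adjusted p = 0.12).

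Tspan8, a tetraspanin of epithelial membranes, was the member higher in Cop. It measured 135, 127, 108, 86.2 and 107 in Cop glands, against 8.7, 3.8, 1.2, 6.8 and 12.3 in BUF/N glands, where every value lay under the floor, so that the gene was at least 6.07-fold higher in Cop. F344, ACI and WF gave 40.2 to 102, 43.4 to 72.6 and 83.5 to 109.6, so that the BUF/N arrays were the low ones among the strains. The limma test of the strain difference gave adjusted p = 3.9e-09. Ehf and Foxa1, epithelial transcription factors on the same list, were too dim to be tested.

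Genes of the prolactin pathway and of hormone receptors passed mostly as lower. Of 19 tested genes 6 passed as lower in Cop and 1 as higher, with a median log2 change of -0.48, and 3 passed on each side after median centring. Without Cop 2 the number lower was 3. Cish, a STAT5 target that damps cytokine signalling, measured 67.9, 191, 264, 223 and 167 in Cop glands and 397, 301, 245, 398 and 298 in BUF/N glands (log2 change -0.95 ± 0.26, adjusted p = 0.0079). Its highest Cop value lay just above the lowest BUF/N value. Stat5a itself measured 132, 146, 319, 170.1 and 189 in Cop and 226, 351, 361, 249 and 315 in BUF/N (log2 change -0.70 ± 0.20, adjusted p = 0.012), with overlap, and gave an adjusted p of 0.051 after median centring. Prlr, the prolactin receptor, measured 312, 289, 391.9, 347 and 336 in Cop and 396, 619.5, 396, 592 and 614 in BUF/N without overlap (log2 change -0.62 ± 0.22, adjusted p = 0.037), but lost its call without Cop 1, 2, 4 or 5 or BUF/N 2, 4 or 5 (adjusted p 0.054 to 0.088). Another Prlr probe set passed at -0.64 (adjusted p = 0.0090), and a further one did not, at -0.30. Jak2 gave -0.48 ± 0.18 (adjusted p = 0.046) and lost its call without Cop 1, 2, 3, 4 or 5 or BUF/N 1, 2, 4 or 5 (adjusted p 0.051 to 0.11), and 2 other probe sets of the gene did not pass and gave 0.00 and 0.30. Socs2, another STAT5-induced inhibitor, was too dim to be tested, at 52.6 to 245 in Cop and 4.1 to 33 in BUF/N, which is the opposite order to Cish.

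Among the receptors for other hormones, Vdr, the vitamin D receptor, measured 124, 128, 109.6, 135 and 106 in Cop and 245, 291, 299.8, 245 and 205 in BUF/N, without overlap (log2 change -1.09 ± 0.21, adjusted p = 3.4e-04). Rara, a retinoic acid receptor, gave -0.98 ± 0.29 (adjusted p = 0.014) and lost its call without Cop 2 (adjusted p 0.058). Another Rara probe set passed at -1.01 (adjusted p = 0.020), and a further one did not, at -0.48. Pgr, the progesterone receptor, did not pass (log2 change -0.92 ± 0.38, adjusted p = 0.075) and passed without Cop 3 (adjusted p 0.031). Esr1, the oestrogen receptor alpha, was too dim to be tested at 27.7 to 46.4 in Cop and 11.6 to 46.8 in BUF/N. The gene higher in Cop was Igf1, which measured 2372, 2601, 2258, 2312 and 2420.0 in Cop glands and 1022, 1323, 1240.3, 1473 and 1860.5 in BUF/N glands, with every Cop array above every BUF/N array (log2 change 0.82 ± 0.15, adjusted p = 2.6e-04). Another Igf1 probe set passed at 0.95, and the remaining 3 did not, at 0.06, 0.68 and 0.20. For Igf1 the change against the mean of F344, ACI and WF was 0.40 for Cop (adjusted p = 0.051) and -0.42 for BUF/N (adjusted p = 0.026).

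Of 23 tested growth factors and ErbB receptors, 6 passed as lower in Cop and 1 as higher (median log2 change -0.34). Erbb3, which signals as a partner of ErbB2 when bound by neuregulin, measured 100.2, 84, 142, 139 and 114 in Cop and 388, 279, 419.9, 349 and 299 in BUF/N, the strains wholly apart (log2 change -1.60 ± 0.22, adjusted p = 6.1e-06). Erbb2 measured 63.7, 62.8, 95.3, 74 and 90.5 in Cop and 160.0, 104, 198, 149.8 and 139.8 in BUF/N (log2 change -0.95 ± 0.18, adjusted p = 2.5e-04). Nrg1, the gene of neuregulin 1, was near the floor in Cop (log2 change -1.10 ± 0.35, adjusted p = 0.021), lost its call without Cop 4 or BUF/N 4 (adjusted p 0.055), and had an adjusted p of 0.51 with a higher floor. Igfbp2, a binding protein of insulin-like growth factors, gave -1.62 ± 0.38 (adjusted p = 0.0027) and the growth factor Pdgfa -1.37 ± 0.37 (adjusted p = 0.0085). Igfbp3, another binding protein, was higher in Cop (log2 change 0.60 ± 0.22, adjusted p = 0.048) and lost its call without Cop 1, 2, 3 or 4 or BUF/N 1, 2, 3 or 5 (adjusted p 0.061 to 0.14). H19, an imprinted non-coding RNA, measured 668, 104, 299, 511 and 109 in Cop glands and 1091, 968, 1363, 2363 and 2106 in BUF/N glands on the probe set with the larger change (log2 change -2.52 ± 0.49, adjusted p = 4.1e-04). A second probe set gave -1.29. Cop values of H19 spread widely, and none reached the lowest BUF/N value on the first probe set. That probe set is among the largest changes, which were picked from genes without overlap. Against the mean of F344, ACI and WF, Erbb3 gave -0.86 for Cop (adjusted p = 0.0022) and 0.73 for BUF/N (adjusted p = 0.0081), and 8 members of the growth list passed as lower in Cop and 1, Erbb3, as higher in BUF/N.

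**Figure D2:**
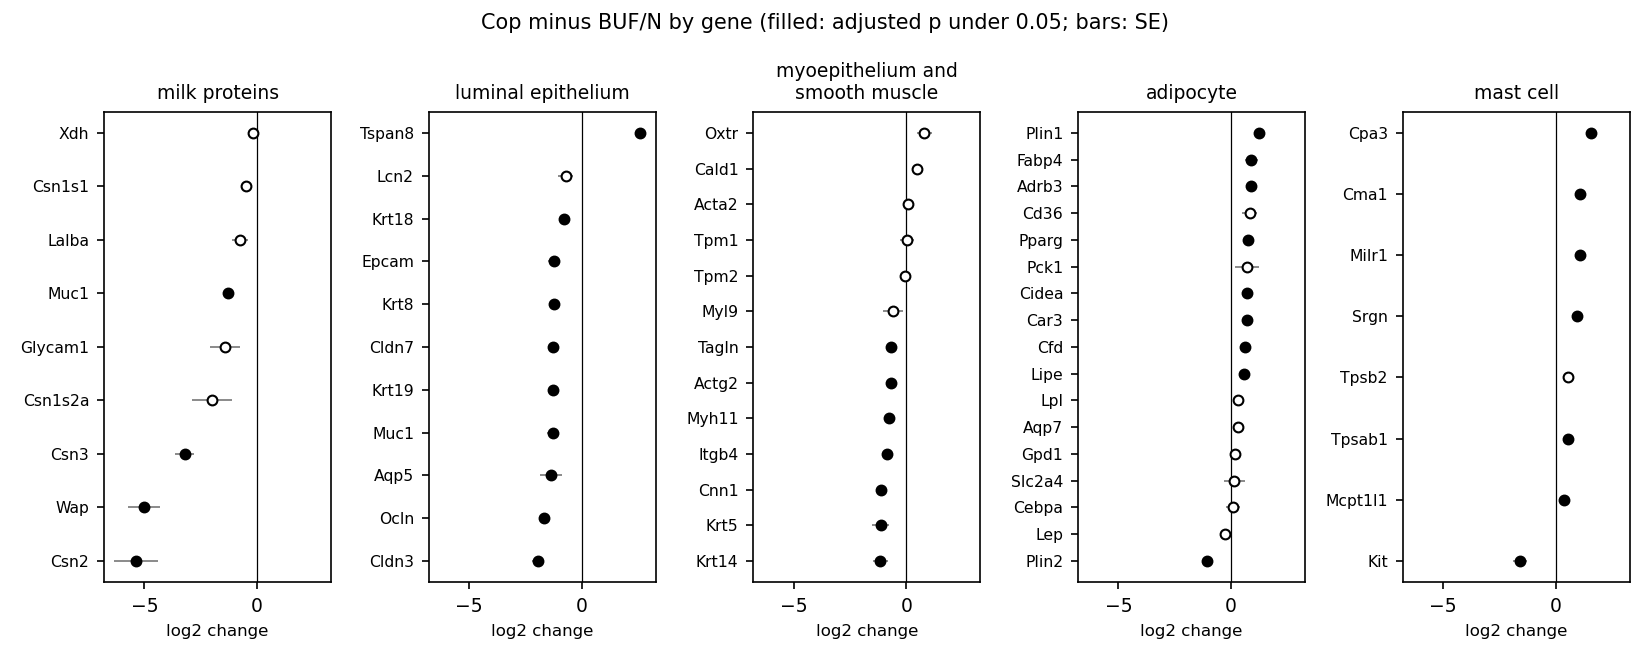
Log2 change of Cop minus BUF/N for each tested member of 5 gene lists (1 probe set a gene), with bars of 1 standard error, and filled points for an adjusted p under 0.05. Milk and luminal genes lie mostly left of 0, with Csn2 at -5.37 and Cldn3 at -1.95, and adipocyte and mast cell genes mostly right of it, with Plin1 at 1.25 and Cpa3 at 1.57.

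Myoepithelial and smooth muscle genes were lower in Cop in part. Of 13 tested genes 7 passed as lower and 0 as higher, with a median of -0.66, and 2 passed as higher after median centring. Krt14, a basal keratin, measured 291, 346, 952, 326 and 663 in Cop glands and 718, 931, 1688, 994 and 1051 in BUF/N glands (log2 change -1.17 ± 0.33, adjusted p = 0.012). Its partner Krt5 gave -1.13 ± 0.37 (adjusted p = 0.025), and both keratins overlapped between the strains at Cop 3. Krt5 lost its call without Cop 1 or 2 or BUF/N 1 or 3 (adjusted p 0.053 to 0.10). Cnn1, the smooth muscle calponin, measured 341, 418, 343.5, 350.4 and 438 in Cop and 1063, 984, 660.1, 790.2 and 631 in BUF/N, with no overlap (log2 change -1.10 ± 0.17, adjusted p = 2.7e-05). Itgb4, the integrin that anchors basal cells to the basement membrane, gave -0.86 ± 0.20 (adjusted p = 0.0026), and Tagln, Actg2 and Myh11, genes of the contractile apparatus, gave -0.66, -0.69 and -0.75. After median centring Actg2 had an adjusted p of 0.056. Acta2, the smooth muscle actin, ran from 2226 to 3704 in Cop and from 2429 to 3188 in BUF/N (log2 change 0.06 ± 0.16, adjusted p = 0.81), while another of its probe sets passed as lower at -1.43. Sox10, a transcription factor of Schwann cells that mouse mammary epithelium also carries, measured 49.3, 58.1, 173, 79.2 and 133 in Cop glands and 276, 363, 395, 203 and 208 in BUF/N glands (log2 change -1.66 ± 0.33, adjusted p = 4.4e-04). Of 9 tested nerve and Schwann cell genes 2 passed as lower, Sox10 and Cnp, and 3 as higher, Gap43, Pmp22 and S100b. A second Pmp22 probe set went the other way at -0.17 and did not pass. Cnp lost its call without Cop 1 (adjusted p 0.082) and S100b without Cop 1, 2, 3 or 4 or BUF/N 1, 3 or 4 (adjusted p 0.053 to 0.080).

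The extracellular matrix list was mixed, with 8 of 31 tested genes lower in Cop, 4 higher and a median of 0.11, and with 5 lower after median centring. Col2a1, a fibrillar collagen typical of cartilage, measured 27.7, 33, 51.4, 32.8 and 60.4 in Cop and 257, 143, 331, 209 and 221 in BUF/N (log2 change -2.51 ± 0.29, adjusted p = 5.1e-07). Mmp2, a protease of basement membrane collagen, and Mmp14, the membrane protease that activates it, were both lower in Cop. Mmp2 measured 420.2, 679, 649, 554 and 635 in Cop and 1322, 1120.2, 1326, 1839 and 1787 in BUF/N (log2 change -1.33 ± 0.17, adjusted p = 2.6e-06). Mmp14 gave -0.76 ± 0.16 (adjusted p = 7.8e-04) with its highest Cop value under the lowest BUF/N value. The 4 genes higher in Cop were Serpinh1, the collagen chaperone, Col5a2, Col15a1 and Mmp3, at 0.54, 0.63, 0.71 and 0.96. Serpinh1 lost its call without Cop 2 or BUF/N 2, 3 or 5 (adjusted p 0.053 to 0.079) and Col15a1 without Cop 1 or 5 (adjusted p 0.056 to 0.068).

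Of 22 tested genes of the TGF-beta and BMP pathway, 4 passed as lower in Cop and 2 as higher, beside 12.2% and 11.1% of all tested probe sets. Inhbb, the beta-B subunit of activin and inhibin, measured 9.9, 20.9, 20, 9.9 and 6.8 in Cop and 169, 134, 116, 72.9 and 88.9 in BUF/N (log2 change -2.54 ± 0.42, adjusted p = 5.6e-05), with the Cop values at or near the floor. Msx1, a homeobox gene acting downstream of BMP signals, measured 59.1, 38.2, 60.4, 93.1 and 81.7 in Cop and 266, 161, 268, 187 and 190.0 in BUF/N (log2 change -1.72 ± 0.25, adjusted p = 1.4e-05). Both genes were wholly apart between the strains, but Inhbb is among the largest changes, which were picked from genes without overlap. Tgfb3, a ligand, and Inha, the inhibin alpha subunit, were lower at -1.26 and -0.56. Id1, a direct BMP target, and Bmp3, an antagonist among the BMPs, were higher at 1.04 and 1.16, while a second, dimmer Id1 probe set gave -0.12 and did not pass.

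The adipocyte genes that passed were higher in Cop, apart from Plin2. Of 17 tested genes 8 passed as higher and 1 as lower, with a median of 0.62. The score ran from 0.17 to 0.47 in Cop and from -0.49 to 0.05 in BUF/N. Summed signals ran from 30159 to 36832 in Cop and from 22721 to 27849 in BUF/N. Plin1, the perilipin that coats the fat droplet of adipocytes, measured 414, 312, 466, 527 and 312 in Cop glands and 245, 244, 92.7, 135 and 172 in BUF/N glands, with no overlap (log2 change 1.25 ± 0.22, adjusted p = 1.1e-04). Car3, a carbonic anhydrase abundant in rodent fat, measured 6541, 6747, 4437, 5745 and 4905 in Cop and 4067, 3196, 2803, 3672 and 3459 in BUF/N (log2 change 0.72 ± 0.15, adjusted p = 9.1e-04). Adrb3, the beta-3 adrenergic receptor, Lipe, the hormone-sensitive lipase, Cfd, the adipokine adipsin, and Cidea, a droplet protein, passed at 0.88, 0.60, 0.62 and 0.72. Pparg, the master regulator of fat cell formation, gave 0.78 ± 0.24 (adjusted p = 0.017) and lost its call without Cop 1 or BUF/N 1 (adjusted p 0.053 to 0.068), and Fabp4 gave 0.91 ± 0.28 (adjusted p = 0.018) and lost it without BUF/N 3 (adjusted p 0.073). Lep, which encodes leptin, did not pass and had a change of -0.24, with 2 dimmer probe sets of the other sign. Plin2, a droplet coat of many cell types that is also found on milk fat droplets, went the other way, at 1357, 1373, 2589, 1537 and 2471 in Cop and 3292, 4432, 5231, 2948 and 3007 in BUF/N (log2 change -1.04 ± 0.21, adjusted p = 6.9e-04).

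Genes of fatty acid oxidation and of the respiratory chain that passed were higher in Cop. Of 16 tested genes of fatty acid beta-oxidation 3 passed as higher in Cop and 0 as lower (median 0.40), and 5 were higher after median centring. Etfa, an electron carrier of beta-oxidation, measured 1126, 863, 888, 1011 and 1051 in Cop and 548, 548, 383, 410.2 and 512 in BUF/N (log2 change 1.05 ± 0.15, adjusted p = 1.2e-05). The enzymes Echs1 and Hadhb gave 0.61 and 0.55. All 3 were without overlap between the strains. Of 30 tested genes of oxidative phosphorylation 5 passed as higher and 0 as lower (median 0.25, and 8 higher after median centring), namely Sdha, Ndufa5, Uqcrc2, Atp5pf and Atp5f1e, subunits of the respiratory chain and of ATP synthase. Without Cop 1, BUF/N 2, BUF/N 4 or BUF/N 5 that number was 2, and it was 3 without Cop 2, Cop 5, BUF/N 1 or BUF/N 3. Among all tested probe sets 23.3% passed, 11.1% higher and 12.2% lower, so neither list held a larger share of calls in total. A second Atp5pf probe set passed at 0.90 (adjusted p = 0.0017), and a second Atp5f1e one did not, at 0.06. Sdha, a subunit of succinate dehydrogenase, gave 0.66 ± 0.16 (adjusted p = 0.0043). Skeletal muscle, which can be cut out with the gland, is rich in both sets of genes. Of 22 tested skeletal muscle genes, 1, Myh1, passed as higher in Cop (log2 change 1.07 ± 0.27, adjusted p = 0.0045), and the median was 0.84. Without Cop 2 there were 4 such genes, and 2 without Cop 5 or BUF/N 2, and both median centring and quantile normalization gave 3. The muscle score ran from -1.50 (Cop 2) to 2.15 (Cop 1) in Cop and from -1.48 to 0.57 in BUF/N, with summed signals of 1408 to 28177 in Cop and of 1362 to 8263 in BUF/N. Ckm, the muscle creatine kinase, ran from 63 to 3809 in Cop and from 116 to 1388 in BUF/N, and the lowest Cop array lay under the lowest BUF/N array. The part of muscle in the metabolic results was not tested. Without Cop 1, the array with the most muscle signal, 3 beta-oxidation genes and 2 of oxidative phosphorylation passed.

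Among 13 tested genes of fatty acid synthesis 3 passed as higher in Cop and 1 as lower. Acacb, the acetyl-CoA carboxylase of mitochondria, was lower at 31.5, 11.9, 48.6, 11 and 48 in Cop and 96.2, 188, 95, 148 and 80.1 in BUF/N (log2 change -1.94 ± 0.47, adjusted p = 0.0036). Acsl1, an acyl-CoA synthetase, was higher (log2 change 0.70 ± 0.18, adjusted p = 0.0057). Another Acsl1 probe set passed at 0.90 (adjusted p = 9.3e-04), and the remaining ones did not, at 0.72 and -0.09. Scd, the stearoyl-CoA desaturase, and Dgat1, which makes triglyceride, gave 0.70 and 0.45 and lost their calls without Cop 1, 2 or 3 or BUF/N 1 or 4 (adjusted p 0.052 to 0.11) and without Cop 4 (adjusted p 0.056). A second Scd probe set passed at 1.55 (adjusted p = 0.014). Fasn, the fatty acid synthase, did not pass (log2 change 0.51 ± 0.39, adjusted p = 0.35). A second probe set gave -0.32. In the sterol list of 13 tested genes, Insig1, which holds back sterol synthesis, measured 2263, 2212, 1629, 1388 and 1375 in Cop glands and 450.1, 409, 294, 345 and 683 in BUF/N glands (log2 change 2.05 ± 0.23, adjusted p = 2.2e-07). Dhcr7, the last enzyme of cholesterol synthesis, was lower at -1.36 and Nsdhl, a further enzyme of that pathway, higher at 0.89. A second Dhcr7 probe set did not pass, at -0.50 (adjusted p = 0.12). Nsdhl lost its call without BUF/N 2 (adjusted p 0.061). Of 15 tested glycolysis genes 2 passed, both lower in Cop (beside 12.2% of all tested probe sets), and without Cop 2 another 3 passed as higher. Aldoc, an aldolase, measured 108, 147, 516, 181 and 523 in Cop and 1185, 1235, 1328, 974 and 742 in BUF/N (log2 change -2.16 ± 0.33, adjusted p = 2.0e-05). Hk2, a hexokinase, gave -0.65 ± 0.18 (adjusted p = 0.0080), with a dim second probe set at 0.42 that did not pass.

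Most mast cell genes were higher in Cop, and Kit was lower. Of 8 tested genes 6 passed as higher and 1 as lower, with a median of 0.76. Cpa3, the carboxypeptidase of mast cell granules, measured 797, 822, 658, 917 and 837 in Cop glands and 256, 295, 199.8, 339.9 and 285 in BUF/N glands, far apart and without overlap (log2 change 1.57 ± 0.17, adjusted p = 1.7e-07). Cma1, a chymase, measured 1064, 1282, 1293, 1653 and 1123 in Cop and 657, 615, 456, 703 and 602 in BUF/N (log2 change 1.08 ± 0.14, adjusted p = 2.1e-06). Milr1, an inhibitory receptor of mast cells, and Srgn, the granule proteoglycan serglycin, gave 1.07 and 0.95. The proteases Mcpt1l1 and Tpsab1 passed at 0.37 and 0.54, and lost their calls without Cop 2, 4 or 5 or BUF/N 1, 2 or 5 (adjusted p 0.052 to 0.11) and without Cop 1, 2, 4 or 5 or BUF/N 1, 2, 3 or 5 (adjusted p 0.051 to 0.13), and proteases of these families have close copies that probe sets may share. A second Mcpt1l1 probe set passed at 1.84 (adjusted p = 7.2e-07). The gene lower in Cop was Kit, the receptor for stem cell factor that mast cells share with luminal progenitors of the mouse gland, at 66.5, 87.1, 171, 68.5 and 229 in Cop and 323, 371, 189, 392.1 and 419.6 in BUF/N (log2 change -1.58 ± 0.30, adjusted p = 3.0e-04). For Cpa3, F344, ACI and WF gave 662 to 897, 698 to 985 and 336 to 704, and its change against their mean was 0.15 for Cop (adjusted p = 0.61) and -1.41 for BUF/N (adjusted p = 2.3e-08), so that BUF/N was the low strain. Fcer1a, Ms4a2 and Hdc, further mast cell genes, were too dim to be tested.

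Macrophage genes passed as higher in Cop at 3 of 9 tested genes and as lower at 0, or at 1 without Cop 2 or BUF/N 3. C1qb, a chain of complement C1q, measured 1834, 2171, 1951, 2165 and 2165 in Cop and 1298, 1132, 1003, 1270.2 and 1212 in BUF/N (log2 change 0.80 ± 0.16, adjusted p = 4.9e-04). Aif1, a cytoplasmic macrophage protein, and Clec10a, a lectin of macrophages, gave 1.17 ± 0.26 (adjusted p = 0.0016) and 1.01 ± 0.20 (adjusted p = 4.4e-04). All 3 were without overlap, whereas C1qc, a sister chain of C1qb, gave a change of -0.02 and did not pass. In the chemokine list Pf4, the platelet factor that macrophages of the mouse also make, was higher at 823, 1025, 1015, 1243 and 800.2 in Cop and 387, 303, 278, 401 and 554 in BUF/N (log2 change 1.38 ± 0.17, adjusted p = 1.4e-06), as was Ccl2, a monocyte attractant (log2 change 0.71 ± 0.19, adjusted p = 0.0083). Cxcr4, a chemokine receptor, was lower (log2 change -0.84 ± 0.23, adjusted p = 0.0081). Ccr1, a chemokine receptor of monocytes, was higher at 0.70 and lost its call without Cop 1, 2, 4 or 5 or BUF/N 2, 3 or 4 (adjusted p 0.059 to 0.14). Of 12 tested T cell genes 2 passed as lower (beside 12.2% of all tested probe sets), Thy1 at -0.76 and Gzmb at -0.62, with a median of -0.68 for the list. Thy1 lost its call without Cop 1, 2, 3 or 4 or BUF/N 1, 3 or 5 (adjusted p 0.056 to 0.15) and Gzmb without Cop 1, 2, 4 or 5 or BUF/N 1, 2, 3, 4 or 5 (adjusted p 0.060 to 0.12). A second Thy1 probe set passed at -0.53 (adjusted p = 0.042). Cd79b, part of the B cell receptor, gave -1.65 ± 0.53 (adjusted p = 0.023) and lost its call without Cop 1 or 4 or BUF/N 4 (adjusted p 0.051 to 0.097).

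**Figure D3:**
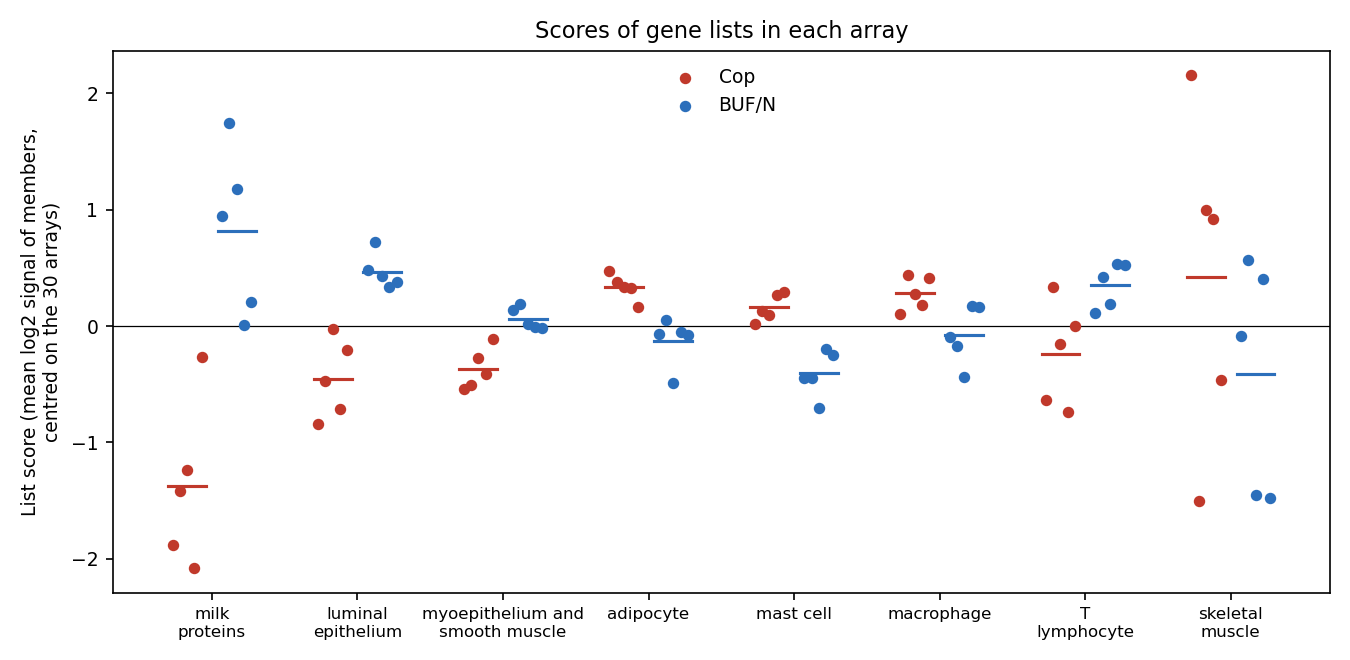
List score (mean log2 signal of the tested members, centred on the 30 arrays) of each of the 5 Cop arrays (red) and 5 BUF/N arrays (blue) for 8 lists, with bars at the means. The strains do not overlap for the milk, luminal, myoepithelium, adipocyte and mast cell lists, and overlap for the macrophage, T lymphocyte and skeletal muscle lists, the last spreading from -1.50 to 2.15 in Cop. A lack of overlap was not particular to the drawn lists. Scores of the beta-oxidation, oxidative phosphorylation, endoplasmic reticulum chaperone, p53, growth factor and B lymphocyte lists, which are not drawn, did not overlap either.

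The single largest change was at RT1-Bb, a beta chain of the rat's MHC class II molecules, and its probe sets disagreed. One probe set measured 0.8, 3, 1.8, 1.3 and 1.2 in Cop glands and 2329.6, 1078, 1174, 2475 and 1710.3 in BUF/N glands, so that it was at least 90.5-fold lower in Cop (adjusted p = 5.5e-20). F344, ACI, WF and F1 gave no signal over 3 on it, so BUF/N stood alone. A second probe set was also under the floor in Cop, against 211 to 558 in BUF/N, but WF reached 252 to 1000.4 on it. Another went the other way, at 845, 1007, 858, 963 and 1118 in Cop and 59.8, 49.4, 71.4, 77.2 and 52.5 in BUF/N (log2 change 3.96 ± 0.21, adjusted p = 5.4e-15), and WF was as low as BUF/N. The last, the one that stands for the gene in the class II list, differed least (log2 change -0.72 ± 0.24, adjusted p = 0.028) and lost its call without Cop 1, 3 or 4 or BUF/N 3 or 5 (adjusted p 0.052 to 0.073). MHC genes vary in sequence between strains and probe sets of the family share letters, so a difference in hybridisation cannot be told apart from a difference in RNA here.

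The other class II genes differed less. Of 8 tested class II genes 3 passed as lower in Cop and 1 as higher, and 1 passed as lower without Cop 1 or BUF/N 3 or after median centring. Cd74, the invariant chain that class II molecules need, did not pass (log2 change -0.23 ± 0.23, adjusted p = 0.49). RT1-DMa, which loads peptides onto class II, measured 296, 340.1, 299.5, 222 and 323 in Cop and 470.3, 458, 533, 559 and 465 in BUF/N (log2 change -0.76 ± 0.17, adjusted p = 0.0014). Its partner RT1-DMb gave -0.75 and lost its call without Cop 1 or BUF/N 3 (adjusted p 0.055 to 0.059), with a second probe set at 0.34 that did not pass. RT1-Ba, the alpha chain paired with RT1-Bb, was higher on its probe set of highest mean signal (log2 change 0.83 ± 0.24, adjusted p = 0.013) and gave -0.49 and -0.18 on the others, which did not pass. Of 11 class I and antigen processing genes 3 were lower in Cop, the class I genes RT1-S3 and RT1-M3-1 at -1.02 and -0.79 and the immunoproteasome subunit Psmb8 at -0.83. The other RT1-S3 probe sets did not pass, at -0.28 (adjusted p = 0.41) and -0.15 (adjusted p = 0.69). In the interferon list, Oas1a and Irf8 passed as lower at -0.52 and -0.89 and lost their calls without Cop 1, 2 or 5 or BUF/N 1 or 4 (adjusted p 0.058 to 0.088) and without Cop 1, 2 or 4 or BUF/N 3, 4 or 5 (adjusted p 0.060 to 0.086).

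Several genes outside the cell type lists were near the floor in one strain. Hs6st1, a sulphotransferase that adds sulphate to heparan chains, measured 6.5, 12.3, 8.6, 10.2 and 6.3 in Cop glands and 545, 424, 664, 632 and 527 in BUF/N glands, at least 30.1-fold lower in Cop (adjusted p = 3.6e-19). F344, ACI and WF gave 403 to 569, 520.5 to 1072 and 385 to 687, the F1 hybrid gave 221 to 332, and the pooled Cop RNA gave 8.1, so the signal was low in Cop alone. Strain differences in the probed sequence were not examined, so weaker hybridisation cannot be told apart from less RNA for this probe set. For Hs6st1 the change against the mean of F344, ACI and WF was -4.92 for Cop (adjusted p = 2.0e-21) and -0.01 for BUF/N (adjusted p = 0.97). Pik3r1, the regulatory subunit of PI3 kinase, measured 44.5, 34.1, 31.3, 19.9 and 47.1 in Cop and 688, 585, 387, 673 and 652 in BUF/N (log2 change -4.11 ± 0.31, adjusted p = 4.7e-11). F344, ACI and WF gave 47.8 to 75.1, 112 to 269 and 9 to 63.3, so that BUF/N was the high strain. Pik3r1 gave -1.05 for Cop (adjusted p = 0.0082) and 3.06 for BUF/N (adjusted p = 4.0e-10) against the mean of the 3. Scnn1b, a subunit of the epithelial sodium channel, measured 17.4, 13.8, 106, 18.9 and 132 in Cop and 620.0, 357, 350.2, 470.3 and 435 in BUF/N (log2 change -3.49 ± 0.57, adjusted p = 4.6e-05). Ephx2, the soluble epoxide hydrolase, differed by probe set. The one with the largest change was under the floor on all Cop arrays but Cop 2, at 12.4, 56.8, 12.6, 13.3 and 7.1 in Cop and 265, 152, 102, 142 and 153 in BUF/N (log2 change -2.76 ± 0.43, adjusted p = 2.8e-05), and ACI arrays were low as well, at 9.5 to 49.6. Both further dim probe sets of Ephx2 passed as lower in Cop at -1.98 and -1.91, and its brightest one did not pass, with means of 248 in Cop and 429 in BUF/N and a log2 change of -0.82 (adjusted p = 0.099). C4bpa, a complement inhibitor, and Lbp, the lipopolysaccharide-binding protein, gave -2.62 ± 0.41 (adjusted p = 3.0e-05) and -2.47 ± 0.34 (adjusted p = 6.1e-06). Both stand among the largest changes, which were picked from genes without overlap.

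On the other side, Mst1, the gene of macrophage-stimulating protein, measured 385, 307, 297, 418 and 296 in Cop glands and 30.6, 13.5, 34, 81.6 and 109 in BUF/N glands (log2 change 2.93 ± 0.28, adjusted p = 1.3e-08). F344, ACI and WF gave 269 to 337, 136 to 234 and 204 to 252, all above the highest BUF/N value, and Mst1 gave 0.53 for Cop (adjusted p = 0.19) and -2.40 for BUF/N (adjusted p = 1.5e-08) against their mean. Plpp1, a lipid phosphate phosphatase, measured 610.3, 484, 392.2, 577 and 643 in Cop and 128, 91.5, 76, 91.6 and 119 in BUF/N (log2 change 2.42 ± 0.22, adjusted p = 2.9e-09). A brighter probe set gave 1.34, and another did not pass, with means of 659 in Cop and 582 in BUF/N (log2 change 0.15, adjusted p = 0.61). The change of Plpp1 against the mean of F344, ACI and WF was 1.41 for Cop (adjusted p = 4.1e-06) and -1.01 for BUF/N (adjusted p = 3.2e-04), so that the mean of the 3 strains lay between. Jund, one of the AP-1 family of transcription factors, measured 109, 112, 131, 154 and 122 in Cop and 11.6, 12.4, 13.1, 11.1 and 22.7 in BUF/N, where 4 of 5 values were under the floor (log2 change 2.70 ± 0.36, adjusted p = 3.0e-06). Lsamp, a neural adhesion molecule, measured 139, 92.3, 95.1, 155 and 261 in Cop and 11.9, 8.4, 11.4, 11.5 and 9.4 in BUF/N, and was at least 7.52-fold higher in Cop (adjusted p = 3.4e-06). Ccn1, a matricellular growth regulator, Sfxn1, a mitochondrial serine carrier, and Prps2, an enzyme of nucleotide synthesis, gave 2.57 ± 0.30 (adjusted p = 5.2e-07), 2.28 ± 0.37 (adjusted p = 4.0e-05) and 2.22 ± 0.25 (adjusted p = 2.2e-07). Slc22a3, an organic cation transporter, and Gatm, the first enzyme of creatine synthesis, gave 1.98 and 1.97. These 9 genes were picked as the largest changes among genes without overlap between the strains, so their lack of overlap is not a separate result.

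Alb, the serum albumin gene, measured 548, 364, 320.4, 427 and 296 in Cop and 62.5, 69.6, 69.7, 65.2 and 199 in BUF/N on its brightest probe set (log2 change 2.20 ± 0.34, adjusted p = 2.7e-05). A dimmer one gave 2.80. BUF/N 5 was above the other 4 BUF/N arrays on both. Among 14 tested genes of liver-type plasma proteins, Rbp4, the retinol carrier that fat also secretes, was higher as well (log2 change 0.99 ± 0.17, adjusted p = 1.1e-04), while C4bpa, Fgg and Cp were lower, so members of the list passed in both directions.

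**Figure D4:**
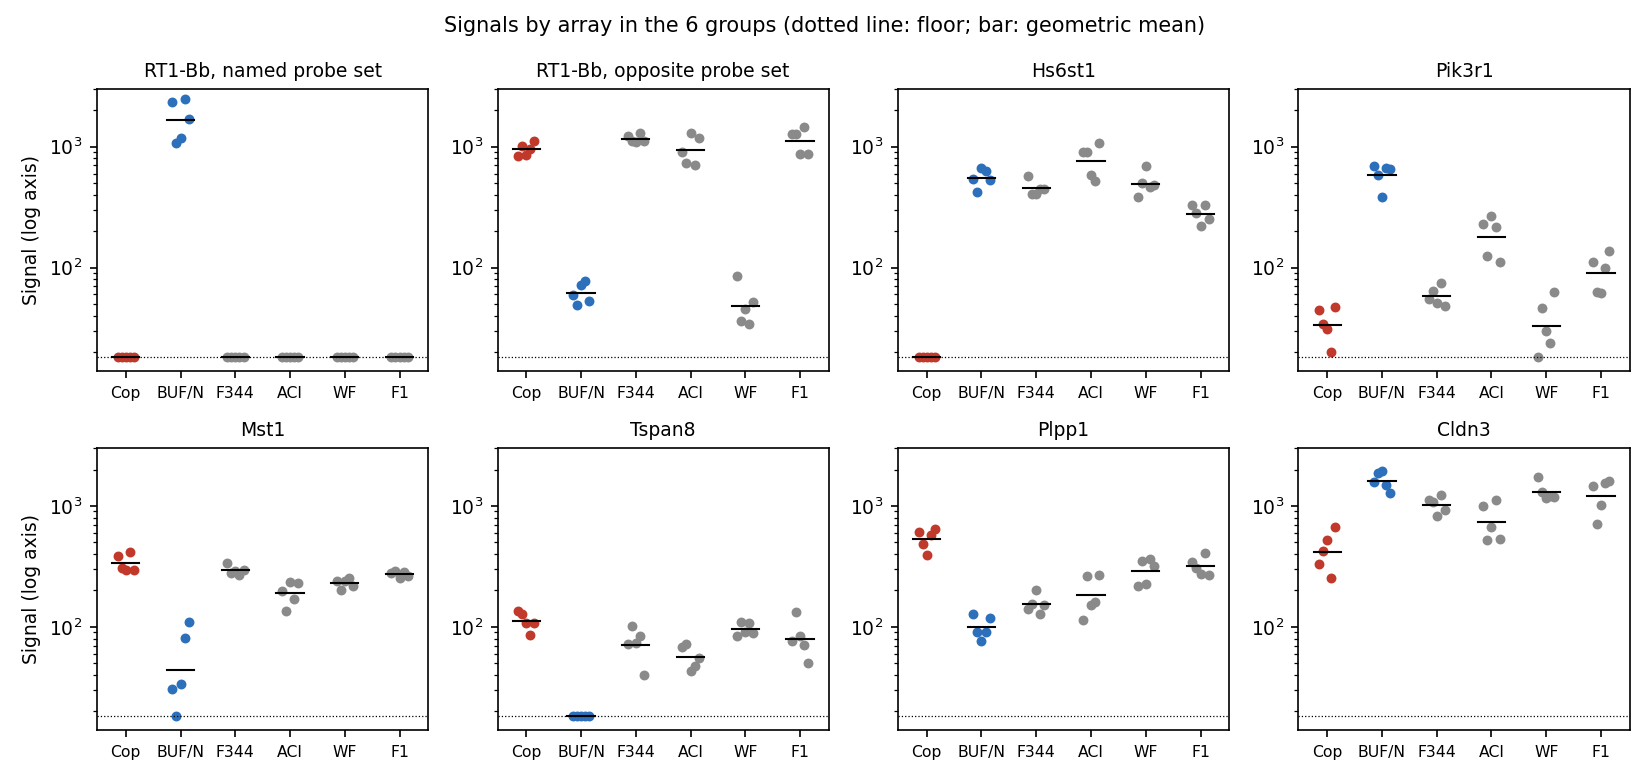
Signals on a log axis by array for 7 genes (RT1-Bb with 2 probe sets) in Cop (red), BUF/N (blue) and, in grey, F344, ACI, WF and the F1 hybrid, 5 arrays each, with values under the floor of 18.3 drawn on the dotted line and bars at geometric means. Cop alone lies on the floor for Hs6st1, BUF/N alone for Tspan8, and BUF/N alone rises over the floor for the first RT1-Bb probe set.

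Of 31 tested genes of xenobiotic metabolism 6 passed as higher in Cop and 2 as lower, with a median of 0.22. Among all tested probe sets 11.1% were higher and 12.2% lower. Cbr1, a carbonyl reductase, measured 282, 148, 179.9, 160.1 and 337 in Cop glands and 754, 695, 754, 934 and 779.8 in BUF/N glands (log2 change -1.89 ± 0.31, adjusted p = 6.1e-05). Gstt2, a glutathione transferase, measured 190.2, 200.1, 242, 229.5 and 203 in Cop and 829.7, 617, 597, 971 and 977 in BUF/N (log2 change -1.88 ± 0.18, adjusted p = 1.2e-08), but a second probe set passed in the opposite direction at 1.18, and genes of this family have close copies. Cyp1b1, a cytochrome that oxidises oestrogens and polycyclic hydrocarbons, measured 160.2, 175, 209, 247 and 115 in Cop and 73.1, 98.5, 53.2, 92.6 and 79.6 in BUF/N (log2 change 1.18 ± 0.31, adjusted p = 0.0070). Its other probe sets did not pass, at 0.61 and 0.81. The carboxylesterase Ces1d and the glutathione transferase Gsta1 were higher at 0.96 and 0.80. The other Gsta1 probe sets did not pass, at 0.54 (adjusted p = 0.058) and 0.001. Gstm1, a glutathione transferase, Hmox1, the inducible haem oxygenase, and Sult1a1, a sulphotransferase, passed as higher at 0.44, 0.59 and 0.73. Gstm1 lost its call without Cop 2, 3 or 4 or BUF/N 2, 3 or 4 (adjusted p 0.063 to 0.11), Hmox1 without Cop 2, 3, 4 or 5 or BUF/N 2, 3 or 5 (adjusted p 0.060 to 0.12) and Sult1a1 without Cop 1, 3 or 4 or BUF/N 1, 2, 3 or 4 (adjusted p 0.054 to 0.14). A second Sult1a1 probe set passed at 1.42 (adjusted p = 3.8e-04). Of the other Gstm1 probe sets, one passed at 0.57 (adjusted p = 0.024) and one did not (adjusted p = 0.16), and a second Hmox1 probe set did not pass, at 0.70. Without Cop 3, Cop 4 or BUF/N 2 the number higher was 3. Ephx1, the microsomal epoxide hydrolase, did not pass (log2 change 0.56 ± 0.24, adjusted p = 0.090).

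Genes of the p53 pathway and DNA repair were lower in Cop at 4 of 11 tested genes and higher at 0, with a median of -0.37, and at 2 after median centring. Ccng1, a p53 target, measured 446, 229, 278, 211 and 241 in Cop and 707, 823, 567, 714 and 599.8 in BUF/N (log2 change -1.32 ± 0.24, adjusted p = 2.3e-04). The caspase Casp6 measured 135, 93.8, 196, 146 and 168 in Cop and 337, 317, 362, 369 and 365 in BUF/N (log2 change -1.28 ± 0.26, adjusted p = 5.5e-04). Both were wholly apart between the strains. Casp2 gave -0.67 ± 0.19 (adjusted p = 0.011) and an adjusted p of 0.068 after median centring, with another probe set at -0.08 that did not pass and a further one at -1.18 that did (adjusted p = 0.012). Parp1, a sensor of DNA breaks, lost its call without Cop 1, 2, 4 or 5 or BUF/N 1, 3 or 4 (adjusted p 0.051 to 0.13). A second Parp1 probe set went the other way at 0.22 and did not pass. Of 19 tested cell cycle genes 2, Cdc25b and Ccnb1, passed as lower at -0.86 and -0.91, and lost their calls without Cop 2 or BUF/N 1 or 3 (adjusted p 0.052 to 0.057) and without Cop 4 or BUF/N 1 or 3 (adjusted p 0.073 to 0.11). Without BUF/N 2 the number lower was 4.

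Among the heat shock genes, Cryab, the small heat shock protein alpha-B-crystallin, was higher at 559, 265, 415, 298 and 231 in Cop and 88.5, 108, 101, 122 and 104 in BUF/N (log2 change 1.69 ± 0.28, adjusted p = 5.6e-05). The mitochondrial chaperonin Hspe1 was higher at 0.71. Hsp90ab1 was lower at -0.43 and lost its call without Cop 4 or BUF/N 3 (adjusted p 0.076), and Hspa1a was lower at -1.02 and lost it without Cop 1 or 2 or BUF/N 4 or 5 (adjusted p 0.054 to 0.095). The other Hsp90ab1 probe sets passed as lower at -0.50, -0.65 and -0.43 (adjusted p 0.0079 to 0.024). Of 18 immediate early genes 3 passed as higher and 2 as lower, beside 11.1% and 12.2% of all tested probe sets. Klf4, a transcription factor, measured 839.5, 1264, 1115, 1108 and 887 in Cop and 541, 521, 259.7, 581 and 577 in BUF/N (log2 change 1.11 ± 0.21, adjusted p = 2.4e-04), and Junb was lower (log2 change -0.74 ± 0.18, adjusted p = 0.0045). Ier3 was lower at -1.05 and Klf9 higher at 0.75, and Klf9 lost its call without Cop 1, 3, 4 or 5 or BUF/N 1 or 3 (adjusted p 0.054 to 0.12). None of the 7 tested clock genes passed in limma, Dbp included (log2 change -0.23 ± 0.41, adjusted p = 0.71), and 1 had an unadjusted p under 0.05. Pdia4 was the single gene to pass among 13 endoplasmic reticulum chaperones, at 1.16, but not without BUF/N 3 (adjusted p 0.064), and Kdr, a receptor of vascular endothelial growth factor, among 8 endothelial genes, at 0.80, but not without Cop 2 or BUF/N 3 (adjusted p 0.053 to 0.066). No red cell gene of 4 and no skin keratinocyte gene of 2 passed in limma, with 1 and 0 at an unadjusted p under 0.05, and 1 red cell gene passed as higher without Cop 5 or BUF/N 3.

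Where a gene had several tested probe sets, 524 passing probe sets could be compared with another. For 280 of them another probe set passed in the same direction, for 231 no other passed, and for 13 another passed in the opposite direction. The last 13 belong to 5 genes, Gstt2, Mfsd12, Nap1l1, Ndufb8 and RT1-Bb.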

How the data were processed

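Total RNA of normal mammary glands was extracted with an RNeasy Maxi kit and lithium chloride, and 5 µg was labelled per array, per the labels' protocols. The deposited values are linear signal intensities per probe set, made by the authors with Affymetrix Microarray Suite version 5.0, per the labels, and each array's trimmed mean over all probe sets is the same. No detection calls were used. Of 8799 probe sets, 59 controls were left out. Gene symbols come from the platform annotation through the Entrez ID in RefSeq's table for GRCr8 (6994 probe sets matched by this ID), so 7018 probe sets had 1 symbol, 308 several and 1473 none, and those with several or none were tested and not named.

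Signals were set to a floor of 18.3 (the 25th percentile), and log2 values were fitted in limma 3.58.1 (R 4.3.3) to 6 group means on 30 arrays, letting the variance follow the mean signal (29.58 degrees of freedom). The 5039 probe sets with at least 5 arrays above the median of 78.4 were tested, with Benjamini-Hochberg adjustment at 0.05. Every adjusted p in the text comes from this fit or its alternatives. Folds against a strain under the floor on every array are bounds, "at least", computed against the floor. The fit was tested on simulated data.

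The members, the 34 gene lists and the alternatives were chosen with earlier results of these data known. Genes were named by rule, as the 12 largest changes each way among passing genes without overlap, up to 3 passing members of each list by adjusted p, and a preset list of genes. Further list members were named after their values were seen. For the 12 largest changes each way the lack of overlap follows from the rule. A list takes 1 probe set a gene, that of highest mean signal. Same-numbered Cop and BUF/N arrays were not paired, since their deviations correlated at -0.23 to 0.12. Alternatives changed the floor, filter, scaling, arrays, variance model and replicate block, 1 at a time.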

Additional observations from a re-analysis of the deposited data

Results flagged for a closer look

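In 382 groups of 5 arrays, 20 held a value far from the other 4 (Dixon's test for 5 values, on floored log2 signals or list scores). Chance gives about 1 in 20 groups where values are not tied. Where the other 4 values lay under the floor they were tied, and any value above it was flagged. This was so for Wap, Csn1s2a, Ephx2, Jund and the dimmer probe set of Alb. Among the milk genes, Cop 5 was high for Csn2 at 550.5 (others 10.8 to 46.3), for Wap at 54.6 (6.2 to 15.5) and for Csn1s2a at 69.5 (9 to 17), and Cop 4 was low for Glycam1 at 38.9 (399 to 698). Of the epithelial genes, Muc1 was 59.6 in Cop 1 (107 to 129.5), and in BUF/N 3 Epcam was 1263 (1681 to 1830) and Itgb4 was 769 (410.5 to 487).

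BUF/N 3 also had the low adipocyte score, -0.49 against -0.08 to 0.05 for the other BUF/N arrays. Of adipocyte genes, Fabp4 was 3276 in Cop 3 (4031 to 4333), Adrb3 was 353 in Cop 5 (542 to 626.5) and Lipe was 1496 in BUF/N 1 (1922 to 2093). Alb was high in BUF/N 5 on both probe sets, at 51.3 (4.7 to 10.8) and 199 (62.5 to 69.7), and Jund was high in the same array at 22.7 (11.1 to 13.1). Of the remaining values, Pik3r1 was 387 in BUF/N 3 (585 to 688), Klf4 was 259.7 in BUF/N 3 (521 to 581) and Ephx2 was 56.8 in Cop 2 (7.1 to 13.3). Rara was 323 in Cop 2 (610.1 to 789.4), Aif1 was 492 in Cop 4 (392.1 to 417) and Igfbp3 was 684 in BUF/N 4 (247 to 315).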

How the results depend on the processing

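Between 845 (without Cop 1) and 1152 probe sets passed when 1 array of the pair was left out, 426 to 552 higher in Cop and 404 to 604 lower, and none of those shared with the 1172 changed sign under any alternative run. Median centring gave 387 lower in Cop, and leaving out ACI 2, ACI 5, F1 2 and F1 3 gave 927. For Cop minus the mean of F344, ACI and WF the counts were 638 without those 4 arrays and 632 with array weights, and 204 to 364 when 1 array was left out; for BUF/N they were 981 and 1331, and 303 to 592. With the replicate block 1135 passed, 550 higher and 585 lower, 1112 of them shared with the fit without it, and no Cop array correlated best with the BUF/N array of its own number. The block ended the calls of Aqp5, Jak2, Igfbp3, Gzmb and Atp5pf (adjusted p 0.055 to 0.067). Of the genes named above, median centring ended those of Actg2, Aqp5, Casp2, Ccnb1, Cnp, Gzmb, Hsp90ab1, Irf8, Jak2, Krt5, Nrg1, Oas1a, Parp1, Prlr, RT1-DMb, Stat5a, Thy1 and 1 probe set of RT1-Bb (adjusted p 0.051 to 0.23). Array weights gave 1672 and the omission of ACI 2, ACI 5, F1 2 and F1 3 gave 1697, and the remaining alternatives gave 1064 to 1547. Over the named genes, 3866 combinations of gene and alternative kept their status, whether passing or not passing. A further 282 lost a call and 33 gained one, and 11 changed sign, all of genes that had not passed. These were Cebpa at -0.064 without BUF/N 3 (range without 1 array -0.064 to 0.19), Slc2a4 at -0.075 without Cop 1 (-0.075 to 0.49) and Acta2 at -0.020 without Cop 4 and -0.017 without Cop 5 (-0.020 to 0.16). Tpm1 was -0.035 with array weights, -0.23 without Cop 1, -0.019 without Cop 3 and -0.026 without BUF/N 5 (-0.23 to 0.31), and Tpm2 was 0.062 after median centring, 0.036 without Cop 2 and 0.092 without Cop 4 (-0.19 to 0.092). The cause was not tested. Signals near the floor give bounds rather than levels.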
